A study of Rattus norvegicus with 21 samples.

Results

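Serine synthesis and the ATF4 target programme were followed through 9 genes in rat liver, namely Phgdh, Psat1, Psph, Shmt2, Asns, Atf4, Ddit3, Trib3 and Fgf21. They were picked by exact gene symbol in the platform annotation, 9 of 14218 annotated genes, and 11 probe sets carry their names, 3 of them for Trib3 and 1 for each other gene. Every value is the signal of 1 Affymetrix array hybridised with liver RNA of 1 male rat, on the linear scale the authors deposited. Piperonyl butoxide (PBO), an insecticide synergist, was given by mouth for 7 days to Sprague-Dawley rats at 500, 1000 or 1500 mg/kg, and the controls received 0.5% methyl cellulose. Dammar resin (DAM), a plant resin, was fed for 28 days to Fischer344 rats at 2% or 5% of the diet, equal to 800 and 2000 mg/kg, and the controls ate basal diet. Each of the 7 groups held 3 rats, described in the labels as biological replicates, which makes 12 PBO-study and 9 DAM-study arrays. PBO-study livers were kept in RNAlater and DAM-study livers were frozen in liquid nitrogen, so compound, strain, route, duration and storage cannot be told apart between the studies.

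Serine is made from the glycolytic intermediate 3-phosphoglycerate by 3 enzymes in a row, Phgdh, Psat1 and Psph, and mitochondrial Shmt2 then splits it into glycine and a one-carbon unit for folate metabolism. When amino acids run short, or when the endoplasmic reticulum or the mitochondria are stressed, kinases phosphorylate the translation factor eIF2alpha, and translation of the Atf4 messenger increases although most translation falls. The ATF4 protein, known mainly from work in human and mouse cells, raises transcription of amino acid synthesis and transport genes, among them Phgdh, Psat1, Asns and Trib3, and of the stress factor Ddit3 (CHOP). The liver is a main source of the hormone Fgf21, which responds to both ATF4 and PPARalpha, the receptor for fatty acids.

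The promoters of the 4 genes that rose at 1500 mg/kg PBO, and of Fgf21, are printed to show which hold the composite element that ATF4 binds together with C/EBP factors, searched as TGATGNAA on both strands. The sequences are the 250 bases before each start site, read in the direction of the gene, from RefSeq on build GRCr8; capitals mark a match. Phgdh lies at chr2:188624790-188625039, Psat1 at chr1:222645409-222645658, Asns at chr4:36769416-36769665, Trib3 at chr3:161275534-161275783 and Fgf21 at chr1:105221377-105221626, all on the minus strand.
Phgdh: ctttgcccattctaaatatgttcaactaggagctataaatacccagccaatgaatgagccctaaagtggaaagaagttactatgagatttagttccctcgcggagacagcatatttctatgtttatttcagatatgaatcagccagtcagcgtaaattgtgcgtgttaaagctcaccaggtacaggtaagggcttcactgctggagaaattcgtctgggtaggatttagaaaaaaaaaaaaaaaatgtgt
Psat1: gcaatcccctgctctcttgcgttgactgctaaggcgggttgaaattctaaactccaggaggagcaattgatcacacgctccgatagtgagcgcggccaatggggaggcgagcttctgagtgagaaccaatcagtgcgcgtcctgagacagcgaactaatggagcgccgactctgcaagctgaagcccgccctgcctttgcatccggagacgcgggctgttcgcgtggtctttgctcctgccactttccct
Asns: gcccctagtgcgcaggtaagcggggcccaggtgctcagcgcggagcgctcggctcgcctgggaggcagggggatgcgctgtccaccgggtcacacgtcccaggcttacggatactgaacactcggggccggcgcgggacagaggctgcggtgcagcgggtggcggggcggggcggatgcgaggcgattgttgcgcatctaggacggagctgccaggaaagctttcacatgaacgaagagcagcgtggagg
Trib3: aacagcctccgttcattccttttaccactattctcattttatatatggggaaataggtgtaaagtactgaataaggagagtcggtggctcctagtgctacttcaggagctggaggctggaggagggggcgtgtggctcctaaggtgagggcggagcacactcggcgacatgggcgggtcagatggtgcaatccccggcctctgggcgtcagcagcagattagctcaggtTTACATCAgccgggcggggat
Fgf21: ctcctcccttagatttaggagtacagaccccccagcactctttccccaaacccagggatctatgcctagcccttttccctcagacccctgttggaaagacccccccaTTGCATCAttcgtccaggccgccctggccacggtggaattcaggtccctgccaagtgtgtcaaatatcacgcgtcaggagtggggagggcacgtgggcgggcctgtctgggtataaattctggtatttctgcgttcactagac
Of all 9 genes, searched from 250 bases before to 50 after the start site, 2 held a match, Trib3 and Fgf21, against 3.98% of 33469 RefSeq promoters of that length. Both matches read on the opposite strand, and they begin 21 bases before the start site in Trib3 and 143 bases before it in Fgf21. A match is a description of letters, and no match says only that these letters are not in this window.

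All arrays shared 1 scale, with a mean signal of 500.2 to 500.3 after trimming 2% at each end, and medians of 94.3 to 114 in the PBO study and 76.0 to 86.2 in the DAM study. The 3 rats per group limit the precision. Arrays of the PBO 1500 mg/kg group stood farther from their group mean (root mean square deviation 0.430 to 0.515 on the log2 scale, highest in replicate 3) than other PBO arrays (0.386 to 0.424) and DAM arrays (0.285 to 0.301). The calls made among the 9 genes at 1500 mg/kg PBO are therefore given with and without replicate 3 of that group. For genes of the 9 not called there, values without that rat are given only where stated. Calls made at 800 mg/kg DAM are given with and without replicate 2, the highest of its group for 5 of the 9 genes. Some other rats were highest for more genes, such as PBO 500 replicate 3 for 7. For genes beyond the 9, values without these rats are given only where stated. The 3'-to-5' signal ratio of the Gapdh control probe sets, a sign of RNA integrity, was 1.07 to 1.19 in the PBO study and 1.52 to 2.01 in the DAM study. For the beta-actin control probe sets the ratio was 2.38 to 3.16 in the PBO study and 5.56 to 9.81 in the DAM study. By both controls the DAM-study RNA was thus less intact or more biased to the 3' end. All 9 measured hepatocyte markers were present on every array, with Alb at 27024 or more.

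Changes below are differences of log2(signal + 16), a scale that understates changes of dim genes, each with the standard error (SE) of a limma fit over all arrays of a study. Adjusted p-values are Benjamini-Hochberg values over all 18625 probe sets tested, and a gene is called higher or lower when its adjusted p is below 0.05. All 9 genes passed the filter on low signals, which keeps probe sets whose mean over a study lies above the 40th percentile.

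Phgdh, the dehydrogenase that starts serine synthesis, was the most responsive of the 9 genes to PBO, and it climbed with dose. Its signals were 116, 36.6 and 63.2 in PBO controls, 126, 171 and 363 at 500 mg/kg, 200.5, 675 and 588 at 1000 mg/kg, and 742, 1009 and 1614 at 1500 mg/kg. Every dosed rat lay above every control, and the 1500 mg/kg rats lay above all others. The mean at 1500 mg/kg was 1122 ± 447, against 72.1 ± 40.6 in controls (SD, n = 3 each), which moved the gene to a mean percentile of 86.4 among the probe sets of its array, against 37.9 in controls. On the log2 scale Phgdh rose by 3.72 ± 0.49 (SE) at 1500 mg/kg (adjusted p = 0.000288) and by 2.45 ± 0.49 at 1000 mg/kg (adjusted p = 0.0169). The 500 mg/kg change of 1.40 ± 0.49 was not called (adjusted p = 0.332, 95% interval 0.34 to 2.46). Without PBO 1500 replicate 3 the change at 1500 mg/kg was 3.43 (adjusted p = 0.000531). The call at 1000 mg/kg was lost without PBO 1000 replicate 2 (adjusted p = 0.075) or 3 (0.0791), and without control replicate 2 (0.0822) or 3 (0.0668).

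Under dammar resin the Phgdh signals were higher too, but not in order of dose, and the rats of a group differed widely. The signals were 8.52, 43.7 and 10.5 in DAM controls, 81.7, 1023 and 287 at 800 mg/kg, and 47.2, 120.4 and 102 at 2000 mg/kg. Controls lay near the lower end of the array, at a mean percentile of 22.6, and all 6 dosed rats lay above all 3 controls. Phgdh was called higher at 800 mg/kg, with a fitted change of 3.21 ± 0.66 (adjusted p = 0.0176). The control level lay below the 40th percentile that served as the filter, so Phgdh was tested in this study only through its dosed groups, and the sizes of its DAM changes depend on the pseudocount. With log2(signal + 1) and log2(signal + 64) the fitted changes were 4.10 and 2.19 at 800 mg/kg, and 2.32 and 0.85 at 2000 mg/kg. The 2000 mg/kg change of 1.57 ± 0.66 was not called (adjusted p = 0.149), and the difference between the doses was -1.64 ± 0.66 (adjusted p = 0.338). The change at 800 mg/kg was 2.35 without DAM 800 replicate 2 (adjusted p = 0.0451). Its call was lost without DAM 800 replicate 3 (adjusted p = 0.0594) and without control replicate 1 (0.0679) or 3 (0.058).

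Psat1, the aminotransferase of the second step, rose with both compounds. Its PBO-study signals were 209.8, 123 and 149.6 in controls, 250.3, 194 and 316 at 500 mg/kg, 487, 632 and 561 at 1000 mg/kg, and 646, 728 and 1608 at 1500 mg/kg. In the DAM study they were 262, 362 and 196 in controls, 754, 2342 and 1791 at 800 mg/kg, and 1041, 2172 and 1117 at 2000 mg/kg. Rats at 1000 and 1500 mg/kg PBO and at both DAM doses all lay above their controls. The rises were 1.72 ± 0.31 at 1000 mg/kg PBO (adjusted p = 0.00882), 2.42 ± 0.31 at 1500 mg/kg PBO (adjusted p = 0.000221), 2.40 ± 0.37 at 800 mg/kg DAM (adjusted p = 0.00317) and 2.29 ± 0.37 at 2000 mg/kg DAM (adjusted p = 0.00153). None of these 4 calls was lost when any 1 rat of the compared groups was left out. Without PBO 1500 replicate 3 the change at 1500 mg/kg was 2.02, and without DAM 800 replicate 2 the change at 800 mg/kg was 2.07. The 500 mg/kg change of 0.61 ± 0.31 was not called (adjusted p = 0.553).

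Psph, the phosphatase that completes serine synthesis, was not called in any comparison with a control. At 1500 mg/kg PBO the signals were 257, 496 and 158, against 369, 399.8 and 255 in controls, and the change of -0.28 ± 0.33 had a 95% interval from -0.995 to 0.44. PBO rats therefore ranged from below the lowest to above the highest control. In the DAM study all 3 rats at 800 mg/kg lay above all controls, with signals of 717, 759 and 883, against 679, 468 and 486. That change of 0.53 ± 0.14 narrowly missed the threshold (adjusted p = 0.0527), and the 2000 mg/kg change was 0.41 ± 0.14 (adjusted p = 0.0739). Without DAM control replicate 1, the highest control, both were called, with adjusted p-values of 0.00801 and 0.00918.

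Shmt2, which converts serine to glycine in mitochondria, was among the brightest genes of the arrays and was not called in any comparison. Its means at 0, 500, 1000 and 1500 mg/kg PBO were 7099 ± 629, 6964 ± 421, 5456 ± 953 and 6467 ± 1134, and at 0, 800 and 2000 mg/kg DAM they were 5175 ± 513, 5005 ± 415 and 5399 ± 339 (SD, n = 3 each). The 95% intervals of the changes ran from -0.46 to 0.17 at 1500 mg/kg PBO and from -0.13 to 0.26 at 2000 mg/kg DAM. Larger differences were seen at 1000 mg/kg PBO, where the change was -0.39 ± 0.15 (adjusted p = 0.205). Psph and Shmt2 thus carried no call over a control at doses where Phgdh and Psat1 did. At 800 mg/kg DAM Psph narrowly missed the threshold (adjusted p = 0.0527 by limma). Differences between the genes were not tested. In the plot of signals by rat, Phgdh and Psat1 climb with PBO dose and the other pair does not.

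**Figure D1:**
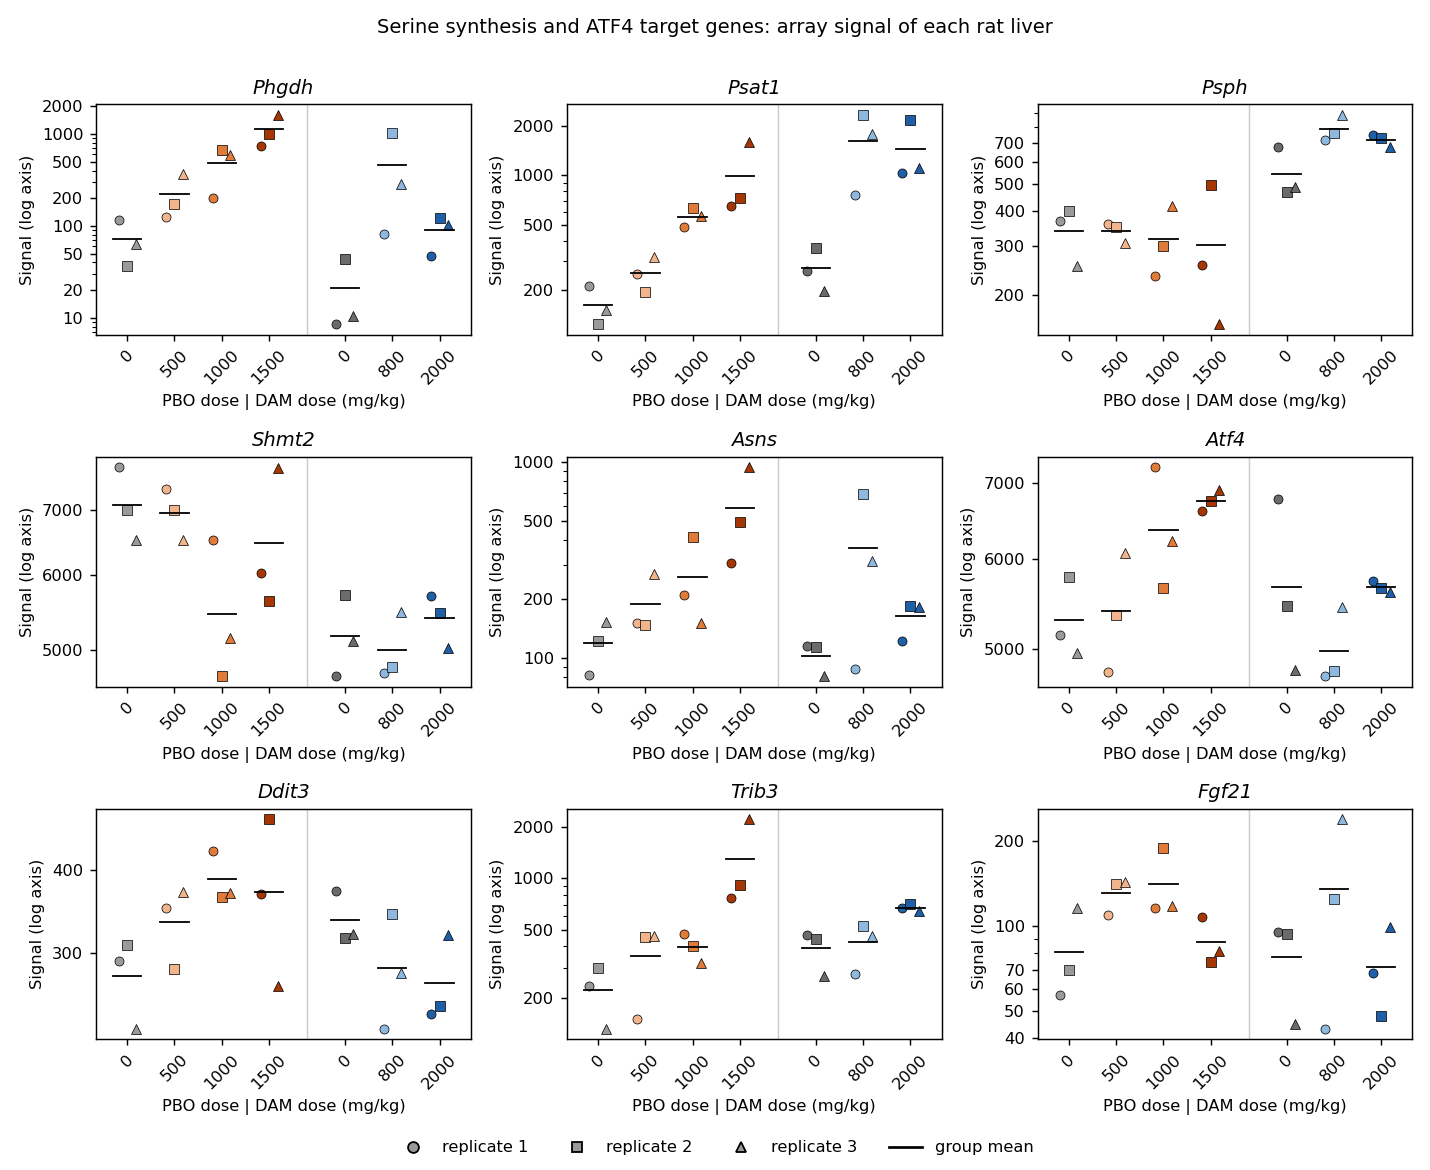
Array signal (log axis) of the 9 genes in each rat against dose in mg/kg, with the PBO groups left and the DAM groups right of the grey line; symbols mark replicates and the bar is the group mean. Phgdh and Psat1 climb over the PBO doses to 742 or more and 646 or more at 1500 mg/kg, while Psph and Shmt2 overlap their PBO controls.

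Asns, which makes asparagine and is the best known amino acid response target of ATF4, rose at the highest PBO dose. Its signals were 81.8, 123 and 153 in PBO controls, 152, 148 and 268 at 500 mg/kg, 211, 417 and 151 at 1000 mg/kg, and 306, 495 and 942 at 1500 mg/kg. All 1500 mg/kg rats lay above all controls, whereas 1 rat at 1000 mg/kg lay below the highest control. The rise at 1500 mg/kg was 2.03 ± 0.42 (adjusted p = 0.00528), and it was 1.62 without replicate 3 of that group (adjusted p = 0.0121). With dammar resin the signals were 115, 114 and 80.8 in controls, 88.7, 688 and 312 at 800 mg/kg, and 122, 185 and 184 at 2000 mg/kg. The 800 mg/kg group thus spanned from within the control range to the highest signal of the study, and its change of 1.29 ± 0.49 was not called (adjusted p = 0.204). That value was 0.65 without DAM 800 replicate 2 (adjusted p = 0.472) and 2.03 without DAM 800 replicate 1 (adjusted p = 0.00516). The groups did not overlap at 2000 mg/kg, but the change of 0.58 ± 0.49 was not called (adjusted p = 0.495).

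Atf4 itself changed little, at a high signal in all rats. The signals were 5144, 5785 and 4959 in PBO controls, 4766, 5359 and 6071 at 500 mg/kg, 7227, 5652 and 6218 at 1000 mg/kg, and 6606, 6747 and 6902 at 1500 mg/kg. The 1500 mg/kg rats lay just above all controls, with a change of 0.35 ± 0.12 (95% interval 0.09 to 0.61) that was not called (adjusted p = 0.0618). Over the 4 doses Atf4 rose by 0.13 ± 0.04 per 500 mg/kg (adjusted p = 0.0307), a call that was lost without PBO control replicate 1 (0.0666) or 3 (0.0843) and without PBO 1500 replicate 1 (0.0546) or 2 (0.0611). The trend call was also lost without the filter (0.0502) and without the intensity trend of the variance model (0.0655). The DAM means at 0, 800 and 2000 mg/kg were 5672 ± 1016, 4981 ± 400.0 and 5669 ± 61.2, and neither dose was called. Arrays measure the messenger, and the protein through which Atf4 acts was not measured.

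Ddit3, the stress-induced transcription factor CHOP, was not called in any comparison with a control. Its signals at 1500 mg/kg PBO were 368, 476 and 267, against 291, 308 and 231 in controls, with a change of 0.37 ± 0.21 (adjusted p = 0.24), or 0.58 without replicate 3 (adjusted p = 0.0515). At 1000 mg/kg PBO the 3 rats, at 427, 364 and 368, lay above all controls, with a change of 0.47 ± 0.21 (adjusted p = 0.295). At 2000 mg/kg DAM the signals were 243, 249.6 and 319, against 371, 315 and 320.1 in controls, and the change of -0.30 ± 0.16 was not called (adjusted p = 0.252). Without PBO 1500 replicate 3 the trend over PBO doses was called at 0.20 per 500 mg/kg (adjusted p = 0.0234), against 0.13 ± 0.07 with all rats (adjusted p = 0.18).

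Trib3, a pseudokinase that binds ATF4 and CHOP and dampens their activity, rose at the highest dose of both compounds. The brightest of its 3 probe sets read 234, 299 and 132 in PBO controls, 149.9, 454 and 457 at 500 mg/kg, 475, 400.1 and 322 at 1000 mg/kg, and 765, 914 and 2201 at 1500 mg/kg. In the DAM study it read 465, 441 and 271 in controls, 277, 529.8 and 461 at 800 mg/kg, and 671, 704 and 642 at 2000 mg/kg. Rats at 1000 and 1500 mg/kg PBO and at 2000 mg/kg DAM lay above all their controls, and rats at 500 mg/kg PBO and 800 mg/kg DAM overlapped them. The rise at 1500 mg/kg PBO was 2.37 ± 0.45 (adjusted p = 0.00325), and 1.91 without replicate 3 of that group (adjusted p = 0.00592). At 2000 mg/kg DAM it was 0.79 ± 0.23 (adjusted p = 0.0392).

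The other Trib3 probe sets gave the same directions. At 1500 mg/kg PBO they rose by 2.50 ± 0.37 (adjusted p = 0.000668) and 2.52 ± 0.45 (adjusted p = 0.00229), and both calls held with each of the 6 rats left out in turn. With 2000 mg/kg DAM they rose by 1.09 ± 0.23 (adjusted p = 0.00819) and 0.91 ± 0.22 (adjusted p = 0.0182). The first of these held in 6 of 6 fits with a rat left out and the second in 2 of 6. The call of the brightest probe set was lost without any 1 of the 3 rats at 2000 mg/kg DAM (adjusted p = 0.0942, 0.112 and 0.072) and without control replicate 2 (0.0521) or 3 (0.131). At 1000 mg/kg PBO the 3 probe sets changed by 0.85, 1.35 and 1.38, with adjusted p-values of 0.386, 0.0725 and 0.138.

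Fgf21, the fasting and stress hormone, stayed near the array median and was not called in any comparison. Its signals were 57.0, 69.9 and 116 in PBO controls, 109, 141 and 144 at 500 mg/kg, 115, 189 and 117 at 1000 mg/kg, and 108, 74.5 and 81.4 at 1500 mg/kg. Its group means were highest at the middle doses, and the 1500 mg/kg rats all lay below the 1000 mg/kg rats, with a difference of -0.57 ± 0.29 that was not called (adjusted p = 0.324). The change at 1500 mg/kg over controls was 0.14 ± 0.29, with a 95% interval from -0.50 to 0.77. At 800 mg/kg DAM the signals were 43.2, 125 and 239, against 95.2, 93.8 and 45 in controls, so the dosed rats spanned both sides of the control range.

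Read over the 9 genes, 4 were called higher and none lower at 1500 mg/kg PBO (Phgdh, Psat1, Trib3 and Asns), where 17.3% of all probe sets were called and 8.08% were called higher. At 1000 mg/kg PBO 2 of 9 were called higher (Phgdh and Psat1), where 3.12% of all probe sets were called and 1.88% were called higher. No gene of the 9 was called by limma at 500 mg/kg PBO, where 0.478% of probe sets were called and 2 of the 9, Phgdh and Fgf21, had an unadjusted p below 0.05. Over the 4 PBO doses as a trend 5 of 9 were called, all higher, against 16.8% of all probe sets called and 7.92% called higher. The trend was 1.22 ± 0.15 per 500 mg/kg for Phgdh (adjusted p = 7.94e-05), 0.84 ± 0.09 for Psat1 (adjusted p = 5.17e-05), 0.74 ± 0.15 for Trib3 (adjusted p = 0.00361) and 0.65 ± 0.13 for Asns (adjusted p = 0.00355), beside that of Atf4. With dammar resin 2 of 9 were called higher at 800 mg/kg (Psat1, and Phgdh from a control level below the filter), against 3.79% of all probe sets called and 2.16% called higher, and 2 of 9 at 2000 mg/kg (Psat1 and Trib3), against 12.3% and 6.22%. In 5 of the 9 genes the rats at 1500 mg/kg PBO all lay above their controls, against 14.4% of all probe sets, and in 4 of 9 those at 1000 mg/kg, against 12.0%. At 500 mg/kg PBO the groups were apart in this way for Phgdh alone, 1 of 9, against 8.57% of all probe sets. For dammar resin the count was 3 of 9 at 800 mg/kg, against 9.95%, and 4 of 9 at 2000 mg/kg, against 14.2%. The 9 genes had a median change of 0.37 at 1500 mg/kg PBO and 0.41 at 2000 mg/kg DAM, and all probe sets tested had medians of -0.08 and -0.04.

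Dose steps within a compound were not resolved for any of the 9 genes by limma. From 500 to 1000 mg/kg PBO no gene was called, against 0.0107% of probe sets. From 1000 to 1500 mg/kg PBO none was called either, against 1.20%, although Phgdh, Psat1 and Trib3 were higher in all 1500 mg/kg rats than in all 1000 mg/kg rats (3 of 9 genes, against 10.4% of probe sets). From 800 to 2000 mg/kg DAM none was called, against 1.11%. The plot of changes with their intervals sets the 5 comparisons with a control side by side; the 3 PBO comparisons share their controls, as do both DAM comparisons.

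**Figure D2:**
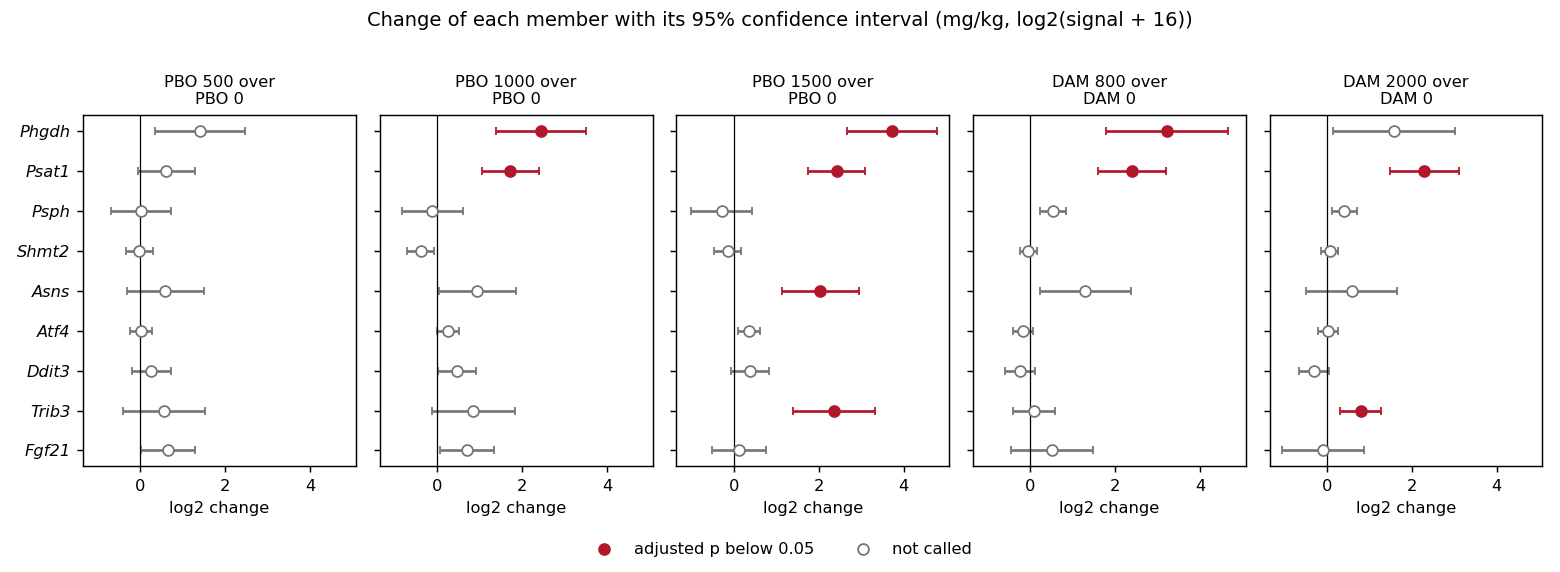
Change of each of the 9 genes on the log2(signal + 16) scale with its 95% confidence interval from limma, one panel per dose over the control of its study; filled red points have an adjusted p below 0.05. Phgdh and Psat1 are called at 1000 and 1500 mg/kg PBO and at 800 mg/kg DAM, and Psat1 also at 2000 mg/kg DAM. Asns is called only at 1500 mg/kg PBO, and Trib3 at the highest dose of each compound.

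Whether the highest doses of the compounds differed in their effects was tested as the PBO 1500 mg/kg change minus the DAM 2000 mg/kg change. No gene of the 9 passed this limma test, against 4.91% of all probe sets. The differences were 2.15 ± 0.92 for Phgdh (adjusted p = 0.2), 1.58 ± 0.56 for Trib3 (adjusted p = 0.121) and 0.68 ± 0.27 for Ddit3 (adjusted p = 0.169). Without PBO 1500 replicate 3 the Ddit3 difference was 0.88 and was called (adjusted p = 0.0408). For Psph the difference was -0.69 (adjusted p = 0.365). Without PBO 1500 replicate 2 the Psph difference was -1.10 and was called (adjusted p = 0.0400). For Asns the difference was 1.45 ± 0.72 (adjusted p = 0.278). For Psat1 the difference was 0.13 ± 0.54, with a 95% interval from -0.995 to 1.25, which still spans changes as large as many of those reported here.

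The same rat was often highest for Phgdh, Psat1 and Asns, a pattern picked out after the values were seen and given without a test. In all 5 dosed groups the rat with the highest Phgdh signal also had the highest Psat1 and the highest Asns signal. In both control groups Phgdh and Psat1 shared their highest rat, and in neither did Phgdh and Asns. For Trib3 the highest rat was that of Phgdh in 4 of the 5 dosed groups, the exception being 1000 mg/kg PBO. The wide DAM 800 mg/kg spread of Phgdh and Asns came from 1 ordering of rats, with replicate 2 highest and replicate 1 lowest in both genes.

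**Figure D3:**
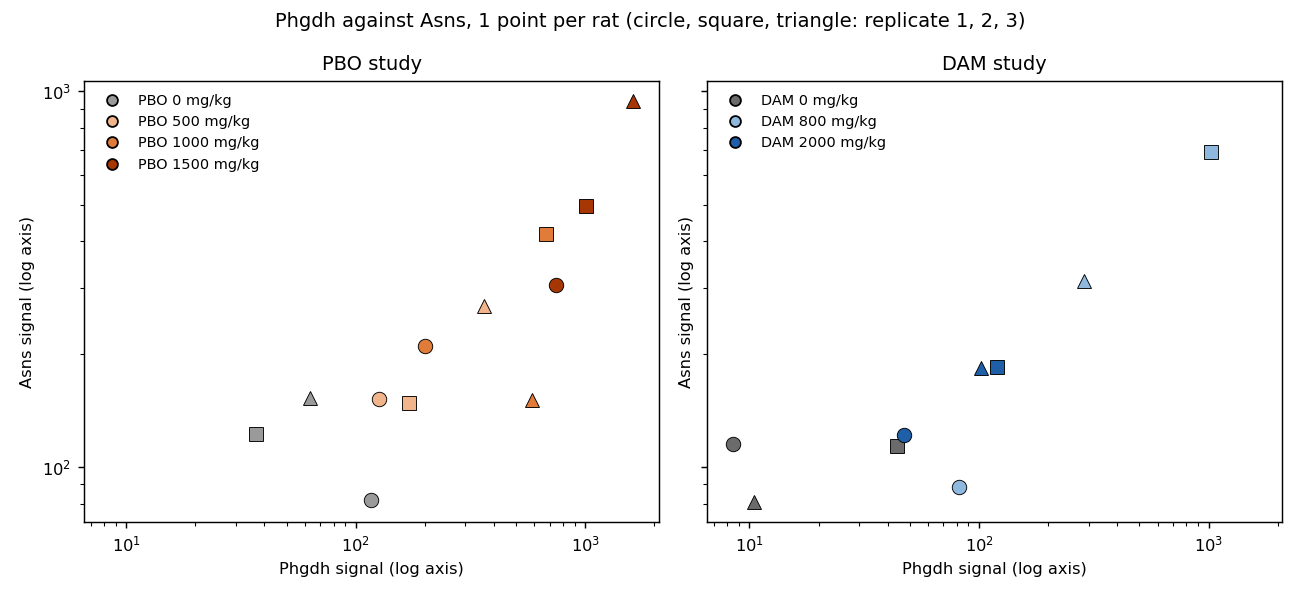
Asns signal against Phgdh signal, both on log axes, with 1 point per rat, PBO study left and DAM study right; colours mark dose and symbols mark replicates. In each dosed group the rat farthest to the right is also the highest, up to 1614 and 942 at 1500 mg/kg PBO and 1023 and 688 at 800 mg/kg DAM.

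Genes whose log2 values ran most like each member were sought over the 12 PBO arrays among 14410 probe sets, as a description, since the arrays share their dose groups and any gene that follows dose will correlate with another. Phgdh was most like C8h11orf52 (r = 0.979) and Arhgef5 (r = 0.965), and Psat1 most like Hlcs (r = 0.98) and Cacul1 (r = 0.979). Asns was most like Ubxn1 and Paip2 (r = 0.961 each), and Trib3 most like Icmt (r = 0.965) and Sec13 (r = 0.957). Of the members with no call over a control, Fgf21 was most like Shoc2 (r = 0.838) and Psph most like Thap3 (r = 0.912), while Ddit3 matched Igf2r (r = 0.944), Atf4 matched Cct6a (r = 0.928) and Shmt2 matched Lgalsl (r = 0.928).

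Other genes of serine, glycine and folate metabolism were read from lists chosen by function. Of 17 further serine and one-carbon genes tested, 1 was called higher and 1 lower at 1500 mg/kg PBO, where 8.08% and 9.26% of all probe sets were. In DAM rats at 2000 mg/kg 3 of 18 were higher and 1 lower, where 6.22% and 6.11% of all probe sets were. Sfxn1, the mitochondrial serine carrier, had signals of 2834, 2967 and 2699.8 at 2000 mg/kg DAM, against 1774, 1942 and 2018 in controls, a rise of 0.57 ± 0.08 (adjusted p = 0.000828). Aldh1l1, which oxidises 10-formyltetrahydrofolate in the cytosol, rose there by 0.50 ± 0.09 (adjusted p = 0.00375). Aldh1l2, its mitochondrial relative, fell at 1500 mg/kg PBO, to 1722, 2008 and 2468, against 3819, 4156 and 5456 in controls, with a change of -1.11 ± 0.19 (adjusted p = 0.00168). Aldh1l2 is itself a known ATF4 target in human and mouse cells, and here it moved opposite to Phgdh and Psat1 at that dose.

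Genes that use or break down serine and glycine gave calls in both directions. Of 17 tested, 0 were called higher and 3 lower at 1000 mg/kg PBO, 2 and 4 at 1500 mg/kg PBO, 1 and 3 at 800 mg/kg DAM, and 1 and 6 at 2000 mg/kg DAM, where 1.23%, 9.26%, 1.62% and 6.11% of all probe sets were called lower and 1.88%, 8.08%, 2.16% and 6.22% higher. Gnmt, which spends methyl groups on glycine, fell with PBO at 1000 and 1500 mg/kg. Its signals were 20031, 21159 and 19619 in controls, 9977, 9381 and 8621 at 500 mg/kg, 6749, 5305 and 7585 at 1000 mg/kg, and 5103, 5172 and 1871 at 1500 mg/kg. All dosed rats lay below all controls. The change was -1.12 ± 0.30 at 500 mg/kg, which was not called (adjusted p = 0.162; 0.000145 with PBO 1500 replicate 3 left out of the spread), -1.64 ± 0.30 at 1000 mg/kg (adjusted p = 0.0095) and -2.46 ± 0.30 at 1500 mg/kg (adjusted p = 0.000149). With dammar resin Gnmt changed by -0.70 ± 0.10 at 800 mg/kg (adjusted p = 0.00193) and by -0.79 ± 0.10 at 2000 mg/kg (adjusted p = 0.000271).

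Sds, the dehydratase that degrades serine to pyruvate, had the largest falls among the genes of this list that were called. Its signals at 2000 mg/kg DAM were 223, 158 and 34.8, against 1079.7, 1121 and 2055 in controls, a change of -3.42 ± 0.59 (adjusted p = 0.00244). At 800 mg/kg DAM the change was -2.96 ± 0.59 (adjusted p = 0.0149), a call lost without DAM 800 replicate 1 (0.0583) or 3 (0.0594) or control replicate 3 (0.0562). At 1000 mg/kg PBO the signals were 62.0, 64.5 and 14.4, against 686, 806 and 960.4 in controls. That change of -3.84 ± 0.92 (adjusted p = 0.0407) was not called with any 1 of the 6 rats left out (adjusted p = 0.0842 to 0.161). At 1500 mg/kg PBO replicates 1 and 2 read 103 and 123 but replicate 3 read 2084, so the change of -1.34 ± 0.92 was not called (adjusted p = 0.352), and it was -2.68 without replicate 3 (adjusted p = 0.0074). PBO 1500 replicate 3 thus had both the highest Sds and the highest Phgdh signal of the PBO study.

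Agxt and Gldc, which act on glyoxylate and on glycine, fell too. Agxt changed by -1.01 ± 0.15 at 1000 mg/kg PBO (adjusted p = 0.00344) and by -0.59 ± 0.11 at 2000 mg/kg DAM (adjusted p = 0.00291). Gldc, the decarboxylase of the glycine cleavage system, changed by -0.79 ± 0.11 at 800 mg/kg DAM (adjusted p = 0.00192) and by -0.85 ± 0.11 at 2000 mg/kg DAM (adjusted p = 0.000374). Alas1, which uses glycine to start haem synthesis, rose by 1.88 ± 0.35 at 1500 mg/kg PBO (adjusted p = 0.00309), and Amt, the aminomethyltransferase of glycine cleavage, by 0.76 ± 0.13 (adjusted p = 0.00177).

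**Figure D4:**
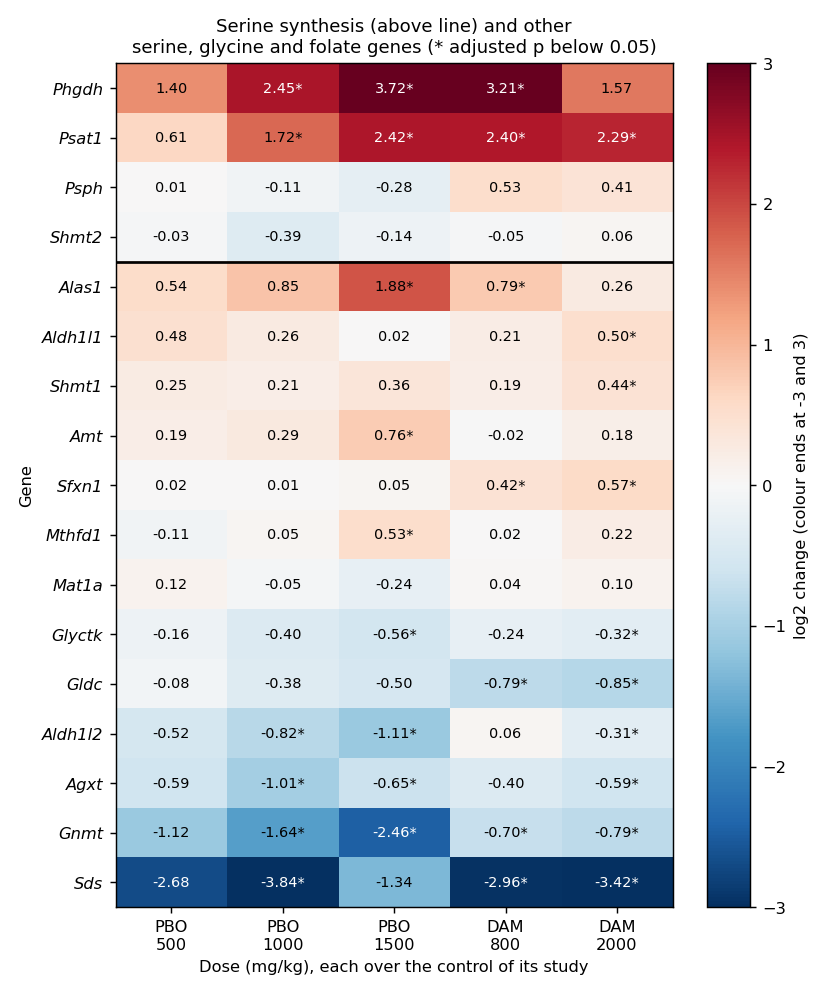
Change on the log2(signal + 16) scale of the 4 serine genes (above the black line) and of the other named serine, glycine and folate genes, one column per dose over the control of its study; an asterisk marks an adjusted p below 0.05. Phgdh and Psat1 are positive in all 5 columns, and Gnmt and Sds are negative in all 5.

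Other ATF4 targets were called in both directions. Of 12 further amino acid targets, 3 were called higher and 3 lower at 1500 mg/kg PBO, against 8.08% and 9.26% of all probe sets. At 2000 mg/kg DAM 1 of the 12 was higher and 3 were lower, against 6.22% and 6.11%. Slc3a2, the shared heavy chain of several amino acid exchangers, was called in every comparison with a control in which Phgdh or Psat1 was. Its signals at 1500 mg/kg PBO were 7393, 7869 and 14034, against 2106, 2608 and 2484 in controls, a rise of 1.96 ± 0.22 (adjusted p = 9.19e-05), and at 2000 mg/kg DAM it rose by 0.69 ± 0.12 (adjusted p = 0.00264). Its call at 1000 mg/kg PBO (0.93 ± 0.22, adjusted p = 0.0407) was lost with any 1 of the 6 rats left out. The amino acid transporter Slc38a2 fell at 2000 mg/kg DAM, to 1605, 1493 and 1253, against 2729, 2561 and 3061 in controls, a change of -0.94 ± 0.12 (adjusted p = 0.000212). Cth, the enzyme that makes cysteine, had a change of -1.12 ± 0.29 at 1500 mg/kg PBO (adjusted p = 0.0206), a call that was lost without control replicate 1 (0.0685), 2 (0.0527) or 3 (0.0542). Without PBO 1500 replicate 3 the Cth change was -0.64 (adjusted p = 0.00367).

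Among 17 further ATF4 and CHOP stress targets, 1 was called higher and 1 lower at 1500 mg/kg PBO, against 8.08% and 9.26% of all probe sets. For 2000 mg/kg DAM the counts were 2 higher and 6 lower of 17, against 6.22% and 6.11%. Eif4ebp1, a brake on translation, rose by 0.83 ± 0.15 at 1500 mg/kg PBO (adjusted p = 0.00227) and by 0.89 ± 0.15 at 2000 mg/kg DAM (adjusted p = 0.00244). The stress sensor Sesn2 fell at 2000 mg/kg DAM, with signals of 641, 907 and 520.5, against 1464, 1767 and 2737 in controls (change -1.49 ± 0.22, adjusted p = 0.00071). The stress protein Nupr1 changed by -1.77 ± 0.30 (adjusted p = 0.00201) and the transcription factor Cebpb by -0.93 ± 0.09 (adjusted p = 3.2e-05) at that dose. Psat1 and Trib3 were higher in those same 3 livers. Gdf15, a secreted stress hormone, read 122, 206 and 566 at 1500 mg/kg PBO, against 109.5, 58.8 and 124 in controls, and its change of 1.26 ± 0.42 was not called (adjusted p = 0.0584; 0.0467 with arrays scaled to a common median). Without replicate 3 the Gdf15 change was 0.68 (adjusted p = 0.177).

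**Figure D5:**
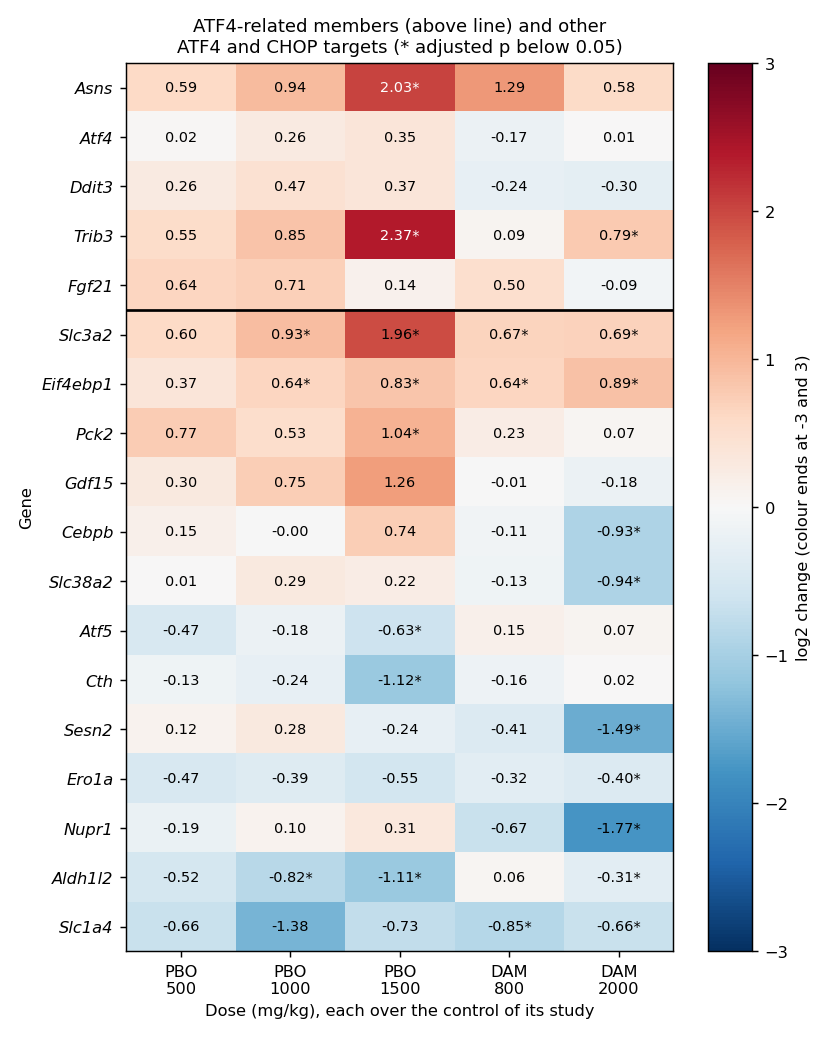
Change on the log2(signal + 16) scale of the 5 ATF4-related members (above the black line) and of the other named ATF4 and CHOP targets, one column per dose over the control of its study; an asterisk marks an adjusted p below 0.05. Slc3a2 and Eif4ebp1 are positive in all 5 columns, while Sesn2, Nupr1, Cebpb and Slc38a2 carry an asterisk only at 2000 mg/kg DAM, all negative.

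Genes upstream of ATF4 and on the parallel branches of the stress response were read against the shares of all probe sets, which were 8.08% higher and 9.26% lower at 1500 mg/kg PBO and 6.22% higher and 6.11% lower at 2000 mg/kg DAM. Of 18 eIF2alpha kinase, phosphatase and partner genes, 2 were higher and 0 lower at 1500 mg/kg PBO, and 1 higher and 2 lower at 2000 mg/kg DAM. Eif2ak2, the kinase that senses double-stranded RNA, fell at 2000 mg/kg DAM by 0.47 on the log2 scale, with an SE of 0.10 (adjusted p = 0.00691), a call that was lost with arrays scaled to a common median (adjusted p = 0.0567). Of 20 genes of the ATF6 and XBP1 branch, which rebuild folding capacity of the endoplasmic reticulum, 0 were higher and 4 lower at 1500 mg/kg PBO, and 1 higher and 2 lower at 2000 mg/kg DAM. The chaperone Hyou1 changed by -0.78 ± 0.17 at 1500 mg/kg PBO (adjusted p = 0.0065). Of 20 genes of cytosolic tRNA charging, another group that ATF4 regulates, 1 was higher and 2 lower at 1500 mg/kg PBO, with Tars1 at -0.74 ± 0.16 (adjusted p = 0.00706), and 2 were higher and 0 lower at 2000 mg/kg DAM.

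Genes around Fgf21 were read against the same shares of all probe sets, 8.08% higher and 9.26% lower at 1500 mg/kg PBO and 6.22% and 6.11% at 2000 mg/kg DAM. Of 5 further genes tested among its receptors and the PPARalpha partners, 0 were higher and 1 lower at 1500 mg/kg PBO, and 1 was higher and 1 lower at 2000 mg/kg DAM. The receptor Fgfr4 read 351, 336 and 155 at 1500 mg/kg PBO, against 663, 589 and 588 in controls, a change of -1.16 ± 0.24 (adjusted p = 0.00568; 0.0525 with only the arrays of these groups), and it changed by -0.90 ± 0.13 at 2000 mg/kg DAM (adjusted p = 0.000776). PPARalpha targets were called 8 higher and 0 lower of 13 at 1500 mg/kg PBO, with the pantetheinase Vnn1 rising by 3.23 ± 0.19 (adjusted p = 5.28e-07), and 1 higher and 4 lower of 12 at 2000 mg/kg DAM. NRF2 targets, antioxidant genes that in part overlap the ATF4 response, were 10 higher and 0 lower of 11 at 1500 mg/kg PBO and 5 higher and 0 lower of 11 at 2000 mg/kg DAM.

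Markers of other liver cells moved with dose, and their part in the changes above was not tested. In whole liver, fewer cells of a type and less RNA per cell cannot be told apart. The summed signal of 5 of 6 cholangiocyte markers was 3469 to 4229 at 1500 mg/kg PBO, against 1102 to 1426 in controls, and 2230 to 2333 at 2000 mg/kg DAM, against 806 to 1178 in controls. Most of that sum was Epcam, at 3803, 3038 and 3696 against 840, 786 and 846 in the PBO study, and Krt19 ranged from 93.1 to 286 and Krt7 from 2.95 to 102 over all arrays. Epcam and Cldn7 were both called higher at 2000 mg/kg DAM, 2 of the 3 cholangiocyte markers tested, with Cldn7 at 548, 589.7 and 725, against 135, 322 and 254 in controls. Krt19 did not rise, at 124, 166 and 183 there, against 133, 183 and 286 in controls. At 1500 mg/kg PBO Krt19 read 230, 168 and 102, against 209, 153 and 250 in controls. Cldn7 was near the floor in that study, at 3.53, 4.01 and 11.2 at 1500 mg/kg, against 4.27, 5.08 and 3.87 in controls. The sum of 9 of 11 Kupffer cell and macrophage markers was 3340 to 20066 at 1500 mg/kg PBO, against 19055 to 20967 in controls. Its 1500 mg/kg values were 20066, 10754 and 3340, lowest in replicate 3, the rat with the highest Phgdh, Psat1, Asns and Trib3 signals, which also had the lowest stellate cell, endothelial, hepatocyte and T and NK cell sums of its group. Much of the replicate 1 sum was Lyz2, at 9010, against 4519, 5296 and 3501 in controls. In that rat Clec4f read 3236, against 5721, 4438 and 5298, while Csf1r read 1027, against 946, 951 and 892. Of the 9 markers 3 were called lower at 1500 mg/kg PBO, against 9.26% of all probe sets. Phgdh, Psat1, Asns and Trib3 were called without replicate 3 too, as given above. Replicate 2 of that group also lay below all controls, with a Kupffer sum of 10754 and a stellate cell sum of 6226. Whether cell types had a part in these calls was not tested. Hepatocyte markers, 9 of 10 measured, summed to 249699 to 327041 at 1500 mg/kg PBO, against 319703 to 405697 in controls, with 5 of the 9 called lower, and to 266374 to 317122 at 2000 mg/kg DAM, against 248912 to 308830 in controls. At 1500 mg/kg PBO, against controls, the sums were 3853 to 9260 against 9928 to 12092 for 8 stellate cell markers, 6794 to 7966 against 9631 to 10327 for 5 of 7 endothelial markers, and 372 to 597 against 726 to 1046 for 8 T and NK cell markers. Much of the stellate cell sum was Col3a1, at 5621, 4069 and 1949, against 7054, 6555 and 8166 in controls. Of the 8 stellate cell markers 3 were called lower, against 9.26% of all probe sets. Erythroid markers, 3 of 6, summed at that dose to 4350 to 9993 against 21596 to 22811, nearly all of it Hbb. All 3 were called lower, against 9.26% of all probe sets. Proliferation markers, 10 of 12, summed to 4491 to 7151 against 3930 to 4727. Much of that sum was Pcna, at 3737, 3038 and 4469, against 2294, 2486 and 2334 in controls. Ccnb1 read 299, 114 and 342, against 209, 359 and 292. Of the 10 markers 2 were called higher and 0 lower, against 8.08% and 9.26% of all probe sets. In the DAM study at 2000 mg/kg, against controls, the sums were 14463 to 17528 against 18649 to 20576 for Kupffer cells, 9197 to 9419 against 10824 to 12155 for stellate cells, 4671 to 7803 against 7119 to 8666 for endothelium, 679 to 789.6 against 871 to 987 for T and NK cells, 10079 to 21815 against 13010 to 17643 for erythroid cells and 2712 to 4485 against 2770.0 to 4767 for proliferation. No marker was at 0 on any array.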

How the data were processed

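Each of 21 male rats gave liver RNA for 1 Affymetrix array. The authors deposited MAS5 signal intensities on a linear scale, per the labels and the submitters' processing notes, which name no MAS5 version. The labels call the rats biological replicates. Each p-value sets a change only against the spread between these samples, estimated over all arrays of its fit. Of 31099 probe sets, 20832 have 1 gene symbol in the platform annotation, 436 several and 9831 none. A gene was read from its probe set with the highest mean.

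Signals were taken as log2(signal + 16), and 18625 probe sets with a mean above the 40th percentile were tested with limma 3.58.1 (R 4.3.3; lmFit, eBayes with intensity trend), each study fitted alone with all its arrays, and both together for the difference between compounds. p-values were adjusted by Benjamini-Hochberg over all of them, and 0.05 was the threshold. The fit was first tested on simulated data. The 9 genes and the 18 gene lists (249 genes, 223 with a probe set) were chosen with earlier results of these data known. Other genes were named by a rule: up to 4 genes of each list with the smallest adjusted p at 1500 mg/kg PBO or 2000 mg/kg DAM, and the 2 genes most correlated with each member over the 12 PBO arrays, of which the first is given for some. Alb and Krt7 were chosen after their values were seen. Alternatives covered the pseudocount, the filter, normalization, the variance model, the arrays in the fit, the replicate block and each rat left out; those added after seeing the data took PBO 1500 replicate 3 or DAM 800 replicate 2 out of the pooled spread.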

Additional observations from a re-analysis of the deposited data

How the results depend on the processing

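The 90 results of the 9 genes were recomputed under 1462 alternatives, of which 22 lost a call, 13 gained one and 0 turned a called direction. Changes of the 9 genes that were called nowhere turned sign 47 times, in 22 of the 90 results. For the other named genes, markers aside, 320 results were recomputed under 4974 alternatives. Of these alternatives 257 lost a call, 71 gained one and 0 turned a called direction. Calls of those genes are given above without these alternatives unless stated. Numbers of called genes of the 9 with a rat left out ranged from 0 to 0 at 500 mg/kg PBO, 1 to 2 at 1000 mg/kg PBO, 4 to 4 at 1500 mg/kg PBO, 4 to 6 for the PBO trend, 1 to 3 at 800 mg/kg DAM, 1 to 3 at 2000 mg/kg DAM and 0 to 1 for the difference between compounds. Without the intensity trend 1 gene was called at 800 mg/kg DAM and 1 at 2000 mg/kg DAM, and without a filter 1 was called at 2000 mg/kg DAM; the cause was not tested. Both settings also ended the Atf4 trend call, leaving 4 of 5. At a filter of the 60th percentile Phgdh was not tested in the DAM study. With the replicate block 0, 2, 4, 4, 2, 3 and 0 genes were called in the same order, and Phgdh at 2000 mg/kg DAM was gained (adjusted p = 0.0298) while the Atf4 trend was lost (0.0503). Rats that share a number did not deviate together (r of -0.07 to 0.03 for PBO arrays, -0.06 to 0.08 for DAM arrays). For rats with different numbers r was -0.05 to 0.05 in both studies. These values cannot show whether rats that share a number were housed or dosed together, which is not stated. Scaling to a common median moved the median of all probe sets by 0.11 at 1000 mg/kg PBO, 0.12 at 1500 mg/kg PBO and 0.11 at 2000 mg/kg DAM, and then Atf4 at 1500 mg/kg PBO was called (adjusted p = 0.0237), as was Psph at 800 mg/kg DAM (0.025) and 2000 mg/kg DAM (0.0218). With all probe sets counted, 89 were called at 500 mg/kg PBO, with 45 to 371 over the alternatives, 581 at 1000 mg/kg PBO (255 to 1448), 3228 at 1500 mg/kg PBO (1550 to 3321), 705 at 800 mg/kg DAM (235 to 804) and 2296 at 2000 mg/kg DAM (1492 to 2408). For the difference between compounds they were 914 (502 to 1425). The pseudocount moved the Phgdh change at 2000 mg/kg DAM to between 0.85 and 2.32. Dim genes such as Phgdh in DAM controls and Fgf21 have the least certain values.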
